A study of Mus musculus with 7 samples.

Results

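The genes described here encode RNA polymerase II (Pol II), its general transcription factors, the Mediator complex and the factors that hold back or release Pol II after initiation, and their mRNA levels were followed in mouse liver over 24 h. They were chosen by symbol, as all genes whose symbol starts with Polr2 or Gtf2 or is Taf or Med with a number, plus Tbp, Nelfe (listed as Rdbp), Supt4a, Supt5, Supt6, Cdk7, Cdk9, Ccnt1 and Hexim1. The rule found 105 probe sets with 1 symbol for 90 genes, each gene was represented by its probe set with the highest mean, and the 84 genes with a mean above 85 units (the signal on the natural scale, after undoing the log2) form the set described, out of 12076 probe sets (10966 genes) that passed the same minimum. By role they are 13 Pol II subunits, 11 general factors including the TFII-I family, 5 genes of TFIIH, 21 TBP-associated factors (TAFs), 28 Mediator subunits and 6 pausing and elongation factors. The 6 genes at or below the minimum were Med30 (67.5 units), Med18 (66.9), Taf7 (66.3), Gtf2a1l (34), Taf7l2 (17) and Taf7l (15.1), and those just above it were Taf1b (85.1), Taf4b (96.1) and Taf5 (98.2). Supt4a had probe sets with several symbols alone and was not used. A symbol does not fix the role of a gene, and the products of Taf1b and Taf1d, for example, belong to a factor of Pol I.

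Pol II transcribes the protein-coding genes. TFIID (TBP with its TAFs) and TFIIA bind the promoter, TFIIB and TFIIF bring in the enzyme, TFIIE and TFIIH open the DNA, and Mediator bridges DNA-bound activators and Pol II. After initiation, DSIF and NELF hold the enzyme near the start site until P-TEFb (Cdk9 with cyclin T1) releases it, and Hexim1 keeps P-TEFb inactive. In liver this machinery serves clock and metabolic genes whose transcription follows the light and feeding cycle.

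The livers came from male C57/BL6 mice, 9 to 11 weeks old when housed, kept in 12 h of light and 12 h of dark for 2 weeks and then given food between ZT12 and ZT24 alone for 7 days, where ZT0 is lights on and ZT12 lights off. Mice were killed every 4 h from ZT02 to ZT26, and 500 ng of RNA from each of 5 livers was pooled per time point and hybridised to 1 Affymetrix Mouse Gene 1.0 ST array. All 7 groups therefore share genotype, strain, sex and feeding schedule. Pooling averages out the spread between animals, and there is 1 array per time point with no replicate. ZT26 and ZT02 are the same clock hour in different mice, and they are the only pair of arrays that can show how far values differ with no change in clock time.

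Array medians lay between 6.37 and 6.40 on the log2 scale, each array correlated with the remaining ones at a mean r of 0.982 to 0.990 over the tested probe sets, and Dixon's ratio set no array apart. The 4 clock genes used to check the time labels (Arntl, Nr1d1, Per2 and Dbp) were all called rhythmic. The summed level of 5 hepatocyte marker genes differed at most 1.05-fold between arrays, and that of 10 Kupffer cell and macrophage markers (5 called of 9 tested, 1 at or below 85 units) at most 1.56-fold, with 5011 units at ZT10, the lowest, and 7820 at ZT26, the highest. The hepatocyte (65404 units), endothelial (1.31-fold between arrays) and stellate cell (1.21-fold) sums were also lowest at ZT10. Of the endothelial markers, Clec4g and Cdh5 were lowest there, but Pecam1, Kdr, Stab2 and Lyve1 were not. Of the stellate markers, Lrat, Dcn and Colec11 were, but Reln and Des were not. Of the Kupffer cell and macrophage markers, Clec4f, Vsig4, Csf1r, C1qa, C1qb and C1qc were lowest at ZT10. Cd5l, Adgre1 and Marco were lowest at ZT14 and Cd163 at ZT02. Clec4f, Cd5l, Adgre1, C1qa and C1qb were highest at ZT26, whereas Vsig4, Csf1r, C1qc and Marco were highest at ZT22 and Cd163 at ZT14. Among cholangiocyte markers 3 of 4, and among lymphocyte markers 5 of 6, lay at or below 85 units. In bulk liver, fewer cells of a type and less RNA per cell cannot be told apart.

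Rhythms were assessed by fitting a 24 h cosine to each tested probe set with limma, and those with an adjusted p under 0.05 were called rhythmic. Of the 84 genes of the machinery, 4 (4.76%) were called, against 540 of 12076 probe sets tested (4.47%), so that the share among these genes lay close to that of all probe sets. The 4 genes were Polr2b, Med22, Gtf2b and Med28, that is 1 Pol II subunit, 1 general factor and 2 Mediator subunits, whereas no TFIIH, TAF or elongation gene was called. At an unadjusted p under 0.05 the count was 17 of 84 (20.2%), against 3100 of 12076 (25.7%). With the thresholds of the study's methods (Fisher's one-period p under 0.25, and a fold above 1.5, taken as highest over lowest array), 7 of 84 passed (8.33%), against 1645 of 12076 (13.6%), and these were Gtf2b, Gtf2e1, Gtf2ird1, Hexim1, Med24, Polr2b and Taf1b.

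**Figure D1:**
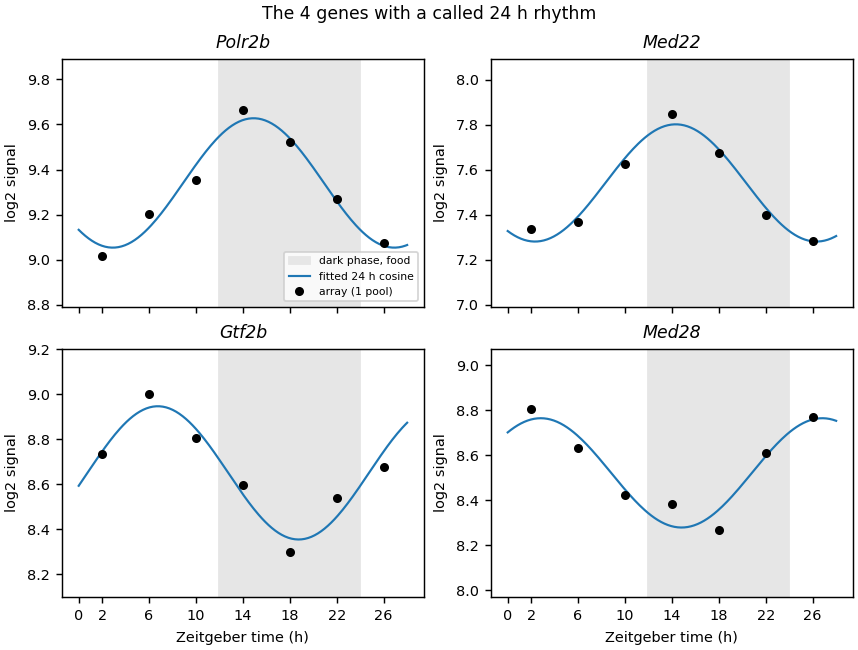
Log2 signal (vertical axis) against Zeitgeber time in h (horizontal axis) for Polr2b, Med22, Gtf2b and Med28, with 1 point per array, the fitted 24 h cosine as a line and the dark phase with food shaded. Polr2b and Med22 were highest at ZT14, Gtf2b at ZT06 and Med28 at ZT02, and the vertical axes all span the same log2 range.

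Polr2b encodes RPB2, which forms much of the catalytic centre with RPB1 and is the subunit that the study's Pol II antibody recognised. Its signal was 518, 590, 654, 812, 735, 617 and 539 units from ZT02 to ZT26 in steps of 4 h. The level was highest at ZT14, 2 h after lights off and food access, fell on each later array, and was again within 1.04-fold of the ZT02 value at ZT26. The fitted amplitude (log2, mean to peak) was 0.29 (SE 0.03), which is 1.49-fold between fitted peak and trough, with the peak at ZT14.9 (SE 0.494 h) and a limma adjusted p of 0.0248.

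Med22, a subunit of the Mediator head, the module that contacts Pol II directly, had 162, 165, 197, 231, 204, 169 and 156 units from ZT02 to ZT26. It followed the same course, low on the first and last arrays and highest at ZT14. The amplitude was 0.26 (SE 0.03), the peak ZT14.3 (SE 0.497 h) and the limma adjusted p 0.0247. The fitted peak of Polr2b fell 0.580 h after that of Med22 (SE 0.701 h), less than the SE. The SE of a difference between peaks combines those of both genes as if they were independent, although they were measured on the same 7 arrays.

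Gtf2b encodes TFIIB, which bridges TBP on the promoter and Pol II. It measured 426, 513, 447, 387, 315, 371 and 410 units from ZT02 to ZT26. This gene was highest in the middle of the light phase, at ZT06, and lowest at ZT18, when its level was 1.63-fold below the highest. The amplitude was 0.30 (SE 0.04), the peak ZT6.75 (SE 0.498 h) and the limma adjusted p 0.0356. The peak of Polr2b came 8.16 h later than that of Gtf2b (SE 0.701 h).

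Med28, a metazoan Mediator subunit, had 447, 396, 343, 334, 308, 390 and 437 units from ZT02 to ZT26. The values at ZT02 and ZT26 were the highest and were nearly equal, and ZT18 was the lowest. The amplitude was 0.24 (SE 0.04), the peak ZT2.82 (SE 0.693 h) and the limma adjusted p 0.0449. The fitted peaks of Polr2b and Med28 lay 12.1 h apart (SE 0.851 h), close to antiphase, and Med28 preceded Gtf2b by 3.93 h (SE 0.853 h).

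With 1 array left out, the limma adjusted p of Polr2b was between 0.0413 (without ZT10) and 0.108 (without ZT14), under 0.05 also without ZT06 (0.0461) and ZT22 (0.0460), and above it without ZT02 (0.0852), ZT18 (0.0614) and ZT26 (0.0804). That of Med22 was 0.0446 without ZT22 and 0.0555 to 0.103 without any other array, that of Gtf2b 0.0493 without ZT22 and 0.0792 to 0.126 otherwise, and that of Med28 0.0757 to 0.127 in all 7 fits. Amplitudes and peaks moved less, with the fitted peak of each of the 4 genes within 0.839 h of its value on all arrays, and with amplitudes of 0.26 to 0.31 for Polr2b, 0.23 to 0.28 for Med22, 0.26 to 0.33 for Gtf2b and 0.21 to 0.30 for Med28.

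**Figure D2:**
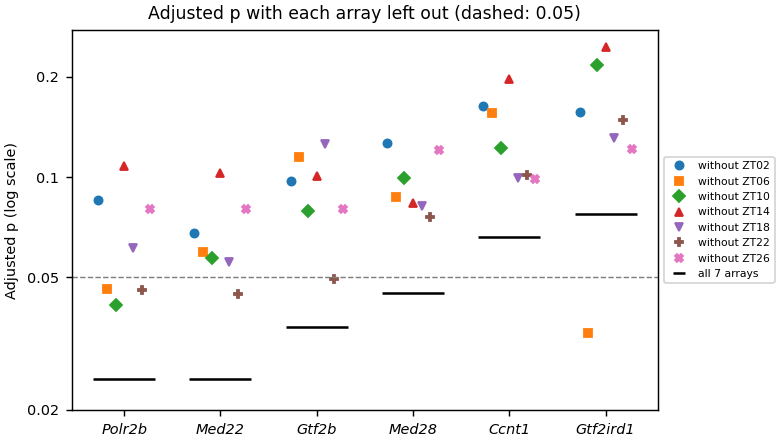
Limma adjusted p (log scale) of the 4 called genes and of Ccnt1 and Gtf2ird1, with all 7 arrays (bars) and with each array left out in turn (symbols), and with the threshold of 0.05 dashed. Polr2b passed in 3 of 7 reduced fits, Med22, Gtf2b and Gtf2ird1 in 1 each, and Med28 and Ccnt1 in none.

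The promoter windows of the 4 called genes are shown because these were the rhythmic genes of the machinery and peaked at different times (Polr2b and Med22 excepted), from 250 bases before to 50 after the start site (RefSeq, build GRCm38.p6, 5′ to 3′ on the strand of the gene). The windows lie at chr5:77310234-77310533 (plus strand) for Polr2b, chr2:26910593-26910892 (minus strand) for Med22, chr3:142764997-142765296 (plus strand) for Gtf2b and chr5:45519979-45520278 (plus strand) for Med28. Capitals mark exact matches on either strand to 9 motifs searched, namely the E-box CACGTG, the D-box TTATGTAA, the ROR and REV-ERB site NAGGTCA, the TATA motif TATAAA, the GC box GGGCGG, the ETS motif CCGGAAG, the CRE TGACGTCA, the YY1 motif AAGATGG and the NRF1 motif GCATGCG.
Polr2b: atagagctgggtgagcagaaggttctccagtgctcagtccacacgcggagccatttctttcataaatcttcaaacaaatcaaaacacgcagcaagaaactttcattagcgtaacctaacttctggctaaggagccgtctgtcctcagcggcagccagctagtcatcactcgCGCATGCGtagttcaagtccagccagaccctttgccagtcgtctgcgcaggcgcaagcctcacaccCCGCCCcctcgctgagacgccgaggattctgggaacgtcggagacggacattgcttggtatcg
Med22: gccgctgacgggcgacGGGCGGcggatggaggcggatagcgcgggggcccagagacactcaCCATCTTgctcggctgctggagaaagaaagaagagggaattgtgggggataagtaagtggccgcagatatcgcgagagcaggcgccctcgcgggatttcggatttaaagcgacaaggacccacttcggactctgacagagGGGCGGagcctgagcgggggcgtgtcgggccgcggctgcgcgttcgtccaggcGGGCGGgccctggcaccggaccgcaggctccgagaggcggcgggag
Gtf2b: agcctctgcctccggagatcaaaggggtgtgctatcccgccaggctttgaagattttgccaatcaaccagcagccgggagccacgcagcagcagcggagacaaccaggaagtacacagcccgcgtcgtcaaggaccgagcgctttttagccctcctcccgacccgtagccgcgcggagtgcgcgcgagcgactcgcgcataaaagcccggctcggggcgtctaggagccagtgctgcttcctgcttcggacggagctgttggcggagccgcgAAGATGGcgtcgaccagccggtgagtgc
Med28: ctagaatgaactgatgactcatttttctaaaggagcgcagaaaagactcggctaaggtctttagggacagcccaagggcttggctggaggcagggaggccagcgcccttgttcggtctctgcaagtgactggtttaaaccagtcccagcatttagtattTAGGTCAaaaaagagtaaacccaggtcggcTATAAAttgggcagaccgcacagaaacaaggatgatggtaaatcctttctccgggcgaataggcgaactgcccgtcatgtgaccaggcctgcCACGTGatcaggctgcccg
In Polr2b the capitals are NRF1 motifs on both strands, which overlap, and a GC box on the reverse strand. Med22 holds 3 GC boxes and a YY1 motif on the reverse strand, and Gtf2b a YY1 motif. Med28 holds an AGGTCA motif, a TATA motif and an E-box. A match describes the letters and not a bound site.

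Of the 84 genes, 74 had windows in the RefSeq table, 89 windows in all. The E-box was found in 18% of these windows, against 7.15% of all 32851 windows of the table, and none of these shares was tested. The GC box was in 65.2% against 35.7%, the ETS motif in 31.5% against 8.86%, the NRF1 motif in 14.6% against 3.58%, the YY1 motif in 14.6% against 6.34% and the CRE in 3.37% against 1.79%. The AGGTCA motif (14.6% against 16.2%) and the TATA motif (12.4% against 13.6%) were about as frequent as in all windows. The D-box was in none against 0.938%. The AGGTCA shares do not give the frequency of full ROR or REV-ERB sites, which were not searched. The median GC content was 59% in the windows of these genes and 52.7% in all windows, and its part in the GC-rich motifs was not tested.

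Among the other 12 Pol II subunits, none was called, against 4.47% of all tested probe sets. Of all 13, 7 (53.8%, against 39.7% of all tested probe sets) differed by less than 1.2-fold between highest and lowest array. Polr2a, whose product RPB1 is the largest subunit and carries the C-terminal repeat domain, had 743, 709, 717, 749, 743, 743 and 770 units from ZT02 to ZT26. This was a range of 1.09-fold, with an amplitude of 0.04 (SE 0.03) and a limma adjusted p of 0.722. The narrowest range was that of Polr2d (RPB4, which forms a detachable stalk with RPB7), where 6 arrays held the same 124 units and ZT14 held 128. Polr2i (RPB9, a small subunit with a role in fidelity) had 278 units at ZT14, against 192 to 251 on the other arrays, and a limma adjusted p of 0.316. Within 1 enzyme, the mRNA of RPB2 thus ranged 1.57-fold over the day and the mRNA of its partner RPB1 1.09-fold. This is a description, since the difference between them was not tested.

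For Polr2c, Polr2h and Polr2l the chosen probe set is numbered among probe sets of another chromosome than that of the gene, and whether it reads a near-identical copy was not tested. The sets of the same genes numbered on their own chromosome gave amplitudes of 0.14 for Polr2c, 0.23 for Polr2h and 0.09 for Polr2l, with limma adjusted p of 0.338, 0.146 and 0.188. The chosen sets gave amplitudes of 0.15, 0.07 and 0.10. The chosen sets of Taf9, Taf10 and Taf13 were also numbered elsewhere, and that of Taf1a could not be placed. None of these 7 genes was called and 4 of the 77 others were, where 4.47% of all tested probe sets were called. These counts do not set the 7 genes apart.

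**Figure D3:**
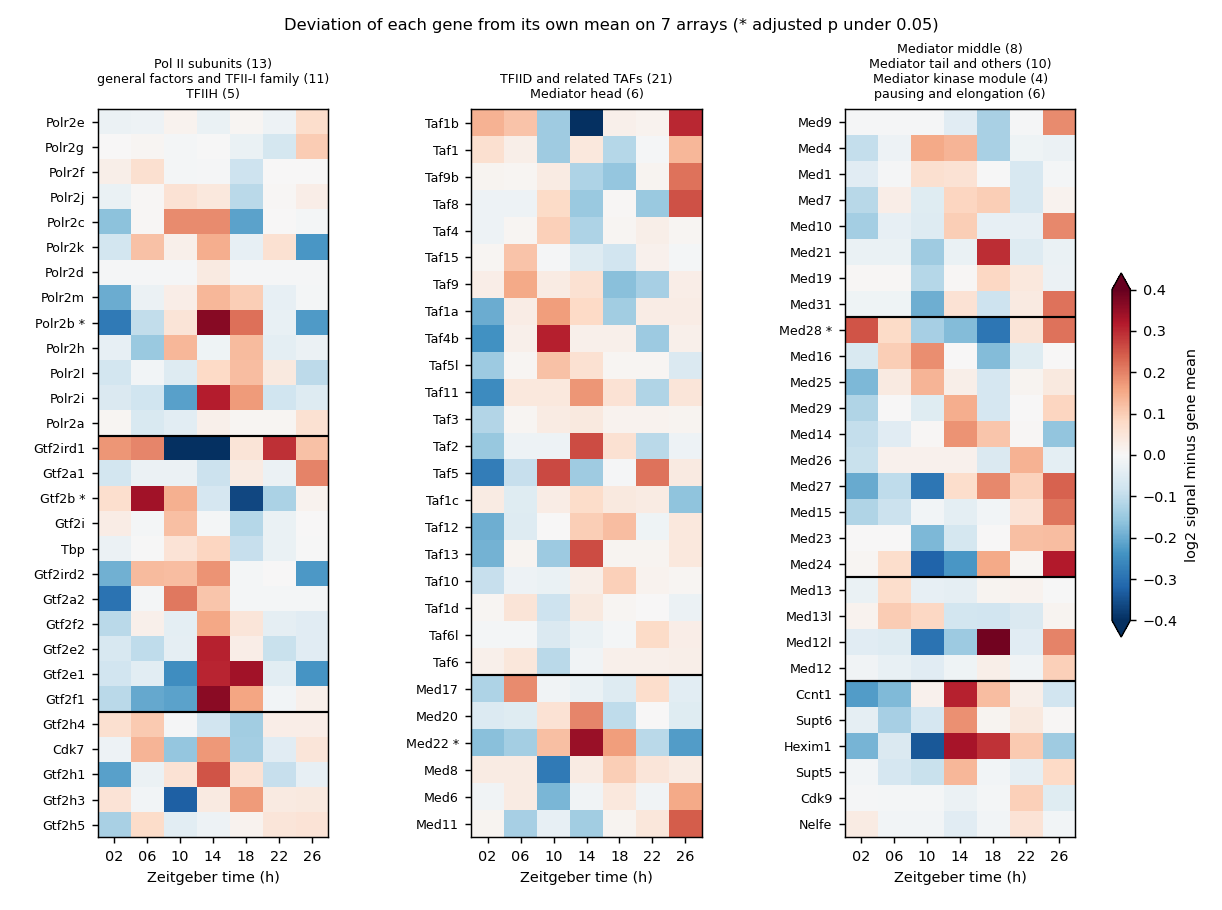
Log2 signal minus the gene's own mean (colour, limits of the scale at 0.4) on the 7 arrays (horizontal axis, Zeitgeber time in h) for the 84 genes, in blocks by role and ordered by fitted peak within a block. Red cells gather at ZT14 in the general factor and elongation blocks, and blue cells at ZT02 in the TAF block among others. An asterisk marks the 4 genes with an adjusted p under 0.05.

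The general factors and the TFII-I family had the highest median amplitude of the 9 role groups, at 0.15, and 4 of 11 (Gtf2b, Gtf2ird1, Gtf2ird2 and Gtf2e1) had an unadjusted p under 0.05, against 25.7% of all tested probe sets. Gtf2ird1, a DNA-binding relative of TFII-I, had the largest amplitude of all 84 genes, 0.34 (SE 0.07). Its values were 390, 396, 256, 261, 358, 423 and 375 units from ZT02 to ZT26. ZT10 and ZT14 stood below the other 5 arrays, which were between 358 and 423 units, and the fitted peak was at ZT0.029 (SE 0.856 h). The limma adjusted p was 0.0776, and it was 0.0340 without the ZT06 array. Gtf2ird2, a further member of that family, had 86.4, 108, 107, 112, 98.2, 98.8 and 84.1 units from ZT02 to ZT26, highest at ZT14, with a limma adjusted p of 0.159.

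Gtf2e1 and Gtf2e2 encode the large and the small subunit of TFIIE, which recruits and stimulates TFIIH. Gtf2e1 had 197, 202, 175, 257, 262, 202 and 177 units from ZT02 to ZT26, so that ZT14 and ZT18 were above the other 5 arrays. Its amplitude was 0.25 (SE 0.08) and its limma adjusted p 0.183. Gtf2e2 had 176 units at ZT14, against 133 to 145 units on the other arrays, with an adjusted p of 0.281. Gtf2f1, the large subunit of TFIIF, which escorts Pol II to the promoter, was also highest at ZT14 (563 units) and next highest at ZT18 (489 units), against 378 to 445 units on the other 5, with an adjusted p of 0.224. These ZT14 levels came from 1 pool and 1 array, and none of these genes passed the test.

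Tbp, the TATA-binding protein, had 407, 413, 430, 439, 388, 406 and 413 units from ZT02 to ZT26. Its range of 1.13-fold was the narrowest of the general factors, and its limma adjusted p was 0.528. TFIIB and TBP, neighbours on the promoter, therefore differed in range, at 1.63-fold for Gtf2b and 1.13-fold for Tbp, which is a description since the difference between them was not tested.

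TFIIH opens promoter DNA, and its kinase Cdk7 phosphorylates the C-terminal domain of Pol II. Of its 5 genes none was called (4.47% of all tested probe sets were). Gtf2h1 and Gtf2h4, subunits of the core, had an unadjusted p under 0.05 (25.7% of all tested probe sets did). Gtf2h1 had 328, 375, 397, 454, 398, 358 and 373 units from ZT02 to ZT26, with an amplitude of 0.16 (SE 0.04), a peak at ZT13.5 (SE 1.08 h) and a limma adjusted p of 0.117. Gtf2h4 ran differently, with 374, 384, 356, 339, 325, 364 and 364 units, a peak at ZT4.51 (SE 1.19 h) and an adjusted p of 0.172. Their ranges were 1.38-fold and 1.18-fold. The widest range of the group was that of Gtf2h3 (a core subunit), 1.41-fold, owing to 186 units at ZT10 against 232 to 263 on the other arrays (adjusted p 0.278), and the narrowest that of Gtf2h5, a small subunit needed for DNA repair, 1.15-fold. Cdk7 had 184, 206, 168, 211, 170, 182 and 194 units from ZT02 to ZT26, high at ZT06 and ZT14 and low at ZT10 and ZT18 (adjusted p 0.886).

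None of the 21 TAF genes was called, against 4.47% of all tested probe sets, and 2 had an unadjusted p under 0.05, against 25.7%. Taf1b had the widest range of all 84 genes, 1.68-fold, with 92.7, 91.1, 76.3, 61.7, 85.3, 85 and 104 units from ZT02 to ZT26. It was lowest at ZT14, with a peak at ZT1.74 (SE 0.987 h) and a limma adjusted p of 0.0953. Its product belongs to the promoter selectivity factor of Pol I, not to TFIID, and its mean was the nearest to the minimum of 85 units. Taf9, a subunit shared by TFIID and the SAGA coactivator, had 700, 763, 702, 717, 612, 626 and 700 units from ZT02 to ZT26, with a peak at ZT7.51 (SE 0.93 h) and an adjusted p of 0.143. The narrowest range was that of Taf1d (also of the Pol I factor), 1.1-fold. Among TAF genes ZT02 was most often the lowest array, in 10 of 21 genes (47.6%), against 21.1% of all tested probe sets. It was also the lowest in 40% of TFIIH genes and 40% of the genes of the Mediator tail and others. The median log2 deviation from the gene's own mean at ZT02 was -0.02 for TAF genes. It was -0.09 for the Mediator tail and others and -0.07 for the general factors, so that low ZT02 values were not particular to TAF genes. The same value on at least 2 arrays was held by 15 of 21 (71.4%, against 47.8%).

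The Mediator genes comprised 6 of the head, 8 of the middle, 10 of the tail with subunits not placed in a fixed module, and 4 of the kinase module. Med22 was the only head subunit with an unadjusted p under 0.05, and no middle subunit had one, against 25.7% of all tested probe sets. In the head, Med20 had the narrowest range, 1.23-fold, with 244 units at ZT14, its highest array, and 198 units at ZT18, its lowest. In the middle module, Med1, the subunit that nuclear receptors bind, had 855, 881, 923, 919, 881, 844 and 878 units from ZT02 to ZT26 (range 1.09-fold, adjusted p 0.357). Med21 had the widest range there, 1.35-fold, because of 304 units at ZT18 alone, while 4 other arrays shared the value of 244 units.

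Of the 10 genes of the tail and others, Med28 was called (4.47% of all tested probe sets were). Med14, Med16 and Med23 also had an unadjusted p under 0.05 (25.7% of all tested probe sets did). Med14, the scaffold that joins the modules, had 649, 672, 695, 785, 748, 695 and 621 units from ZT02 to ZT26, a course like that of Polr2b, with a peak at ZT15.2 (SE 0.888 h), an amplitude of 0.14 (SE 0.03) and a limma adjusted p of 0.0784. Med16 had 327, 365, 388, 341, 302, 329 and 341 units, highest at ZT10, with a peak at ZT8.29 (SE 0.903 h) and an adjusted p of 0.135. Med23 and Med24, which sit beside Med16 in the tail, were both lowest at ZT10 and highest at ZT26.

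Med23 had 399, 399, 352, 380, 399, 433 and 434 units from ZT02 to ZT26 (adjusted p 0.151), and Med24 had 305, 319, 243, 258, 337, 305 and 378 units (adjusted p 0.243). The range of Med24 was 1.56-fold, the widest of its group, and that of Med26, a subunit that contacts elongation factors, was the narrowest at 1.17-fold. Among the 28 Mediator genes, 10 (35.7%, against 17.5% of all tested probe sets) had their lowest level at ZT10 and 10 (35.7%, against 19.2%) their highest at ZT26, the arrays on which the Kupffer cell marker sum was lowest (5011 units) and highest (7820 units). Single Kupffer cell markers differed in their extreme arrays. The cholangiocyte marker sum was also lowest at ZT10 (389 units) and highest at ZT26 (661 units), with 3 of its 4 markers at or below 85 units. The part of cell composition in these Mediator values was not tested. Elsewhere in the machinery, ZT10 was lowest in 40% of TFIIH, 33.3% of pausing and elongation and 27.3% of general factor genes. It was lowest in 19% of TAF genes and 7.69% of Pol II subunit genes.

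In the kinase module, which can bar Mediator from Pol II, the large subunits Med12 and Med13 had ranges of 1.1-fold and 1.08-fold, whereas those of their paralogs were wider. Med12l was the widest at 1.60-fold, with 122, 122, 103, 114, 165, 122 and 145 units from ZT02 to ZT26 and a limma adjusted p of 0.385, lowest at ZT10 and highest at ZT18 and ZT26. Med13l had 349, 370, 365, 328, 328, 331 and 348 units, an amplitude of 0.10 (SE 0.03), a peak at ZT6.76 (SE 1.06 h) and an adjusted p of 0.179.

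None of the 6 pausing and elongation genes was called (4.47% of all tested probe sets were). Ccnt1 and Hexim1 had an unadjusted p under 0.05 (25.7% of all tested probe sets did). Ccnt1, which encodes cyclin T1 of P-TEFb, had 356, 368, 421, 515, 453, 423 and 395 units from ZT02 to ZT26. Its values were higher on each array up to ZT14 and lower on each array after it, with an amplitude of 0.21 (SE 0.04), a peak at ZT15.6 (SE 0.804 h) and a limma adjusted p of 0.0663, and it passed the threshold when the arrays were quantile normalized again (0.0474). Hexim1, the inhibitor of P-TEFb, had 274, 300, 247, 392, 381, 335 and 282 units from ZT02 to ZT26. Its highest arrays were ZT14 and ZT18 and its lowest ZT10, with an amplitude of 0.28 (SE 0.08), a peak at ZT17.7 (SE 1.07 h) and an adjusted p of 0.159.

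Cdk9, the kinase partner of cyclin T1, had 932, 930, 929, 918, 929, 997 and 904 units from ZT02 to ZT26, a range of 1.1-fold with an adjusted p of 0.818. The mRNAs of the cyclin and of the kinase of P-TEFb thus had different ranges, 1.45-fold for Ccnt1 and 1.1-fold for Cdk9. Neither gene was called, and the difference between them was not tested. Nelfe, a subunit of NELF, had 240, 232, 232, 227, 232, 243 and 232 units (range 1.07-fold), the narrowest of the group. Supt5, the large subunit of DSIF, had 561, 540, 532, 620, 561, 552 and 598 units (adjusted p 0.863), and Supt6, a histone chaperone that travels with elongating Pol II, had 531, 496, 520, 617, 548, 559 and 546 units (adjusted p 0.386). Both were highest at ZT14.

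Amplitudes over the whole machinery were small. The median was 0.09 (quartiles 0.05 and 0.14), against 0.09 (0.05 and 0.17) over all tested probe sets, and the median ratio of highest to lowest array was 1.25 against 1.24. A ratio above 1.5 was seen in 8 genes (9.52%) against 16.3% of the tested probe sets. No gene of the machinery exceeded 2-fold, against 516 of the tested probe sets (4.27%), and 31 (36.9%) stayed below 1.2-fold, against 39.7%.

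The arrays of highest and lowest level were unevenly spread, and the shares are given as descriptions with no test. The highest array was ZT14 in 26 of the 84 genes (31%), against 18.4% of all tested probe sets, and ZT26 in 18 (21.4%), against 19.2%. The ZT02 array was the highest in 1 gene (1.19%), Med28, against 9.06% of the tested probe sets, and the lowest in 25 (29.8%), against 21.1%. ZT10 was the lowest in 22 (26.2%), against 17.5%. Where arrays tied for the highest or lowest value, the earliest of them was counted, which favours ZT02. Polr2d, tied on all arrays but ZT14, thus counts as lowest at ZT02. The part of such ties in these shares was not tested. Relative to the gene's own mean, the median deviation of the 84 genes was -0.04 at ZT02 and 0.04 at ZT14 on the log2 scale, against -0.01 and 0.00 for all tested probe sets. At ZT26, the clock hour of ZT02, it was 0.01, against 0.01 for all tested probe sets. ZT26 was the lowest array in 7 genes (8.33%), against 11.1%, so that the low ZT02 levels did not recur at the same clock hour.

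**Figure D4:**
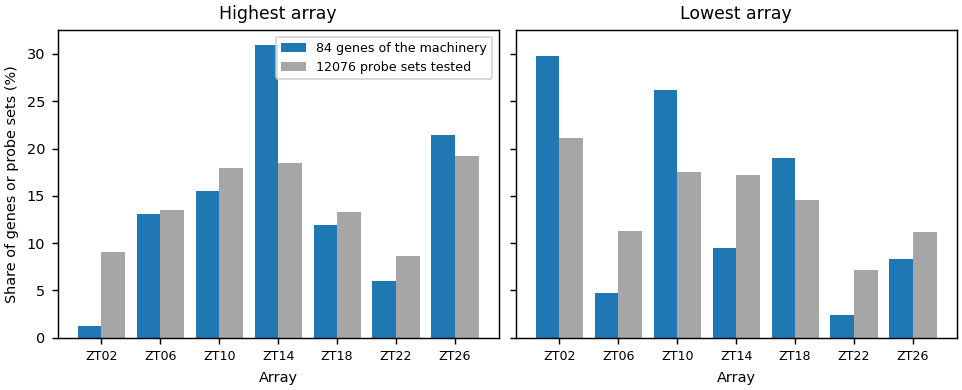
Share in percent of genes or probe sets (vertical axis) whose highest (left) or lowest (right) value fell on each array (horizontal axis), for the 84 genes of the machinery (blue) and the 12076 probe sets tested (grey). ZT14 was the highest array in 31% of the genes of the machinery and in 18.4% of all probe sets, and ZT02 the lowest in 29.8% and 21.1%. ZT26, the clock hour of ZT02, was the lowest in 8.33% and 11.1%, and ties count for the earliest array.

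By fitted peak, 54 of the 84 genes (64.3%) fell in the dark phase, against 51.2% of all tested probe sets. The interval from ZT12 to ZT16, the first hours of darkness and food, held 24 (28.6%), against 18.6%, and that from ZT20 to ZT24 held 19 (22.6%), against 16.7%. Among the 17 genes with an unadjusted p under 0.05, 9 (52.9%) had a fitted peak in the dark, near the 51.2% of all tested probe sets. Of these 9, 6 lay between ZT12 and ZT16 (Polr2b, Med22, Med14, Ccnt1, Gtf2h1 and Gtf2ird2), 35.3% of the 17, against 18.6% of all tested probe sets. The shares among all probe sets with an unadjusted p under 0.05 were not taken. Peak times of genes that were not called are loose, with standard errors of up to 23.6 h (Med10), so that these counts are descriptions.

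The ZT26 and ZT02 pools give the scale of differences at 1 clock hour. The median absolute difference between them was 0.08 on the log2 scale over the 84 genes, against 0.09 over all tested probe sets, and in 43 genes (51.2%, against 46.5%) it was larger than the fitted amplitude. It was largest for Med27 (0.44, 328 units at ZT26 and 242 units at ZT02), followed by Med15 and Med10 (0.33 each), Taf5 and Med24 (0.31 each), which were all higher at ZT26. In the 4 called genes it was between 0.03 and 0.06, which is a description only, since both arrays enter the fit at the same clock time and a small difference between them is part of what makes a call. A change from 1 day to the next and a difference between pools cannot be told apart with these arrays.

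**Figure D5:**
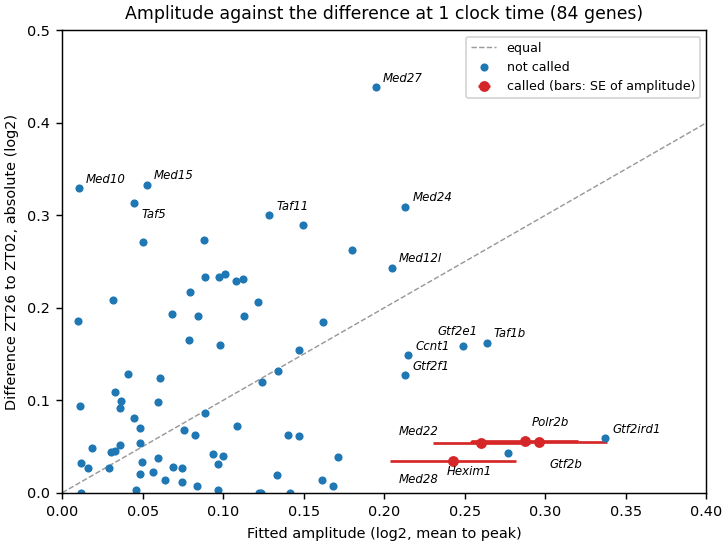
Absolute log2 difference between ZT26 and ZT02 (vertical axis) against fitted amplitude (log2, mean to peak, horizontal axis) for the 84 genes, with the 4 called genes in red with the SE of their amplitude and a dashed line of equality. Called genes lie below the line by the way they were chosen, and Med27, Med15, Med10, Taf5 and Med24 are labelled for their large difference.

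Identical values on several arrays were common in these data. To 5 decimals on the log2 scale, 45 of the 84 genes (53.6%, against 47.8% of all tested probe sets) had the same value on at least 2 arrays, and 7 (8.33%, against 8.98%) on at least 4, namely Polr2d, Med8, Med9, Med21, Nelfe, Taf4b and Gtf2a2. None of the 4 called genes had such a tie.

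Other genes of the pathway were taken from lists of partners, namely the kinase module of Mediator, the rest of TFIIH, pausing factors, the super elongation complex, elongation factors, phosphatases and assembly factors of Pol II, and SAGA with TBP regulators. Of 71 listed genes, 64 were tested, 0 were called with limma, against 4.47% of all tested probe sets, 17 had an unadjusted p under 0.05 (25.7% of all tested probe sets did), and 4 passed the thresholds of the study's methods (13.6% of all did). The sum of the partner levels differed at most 1.06-fold between arrays, between 31600 units at ZT02 and 33494 units at ZT10.

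The subunits of Pol I and Pol III, the enzymes most like Pol II, served as a further comparison. None of 17 genes tested was called with limma, 4 had an unadjusted p under 0.05 (25.7% of all tested probe sets did), and 3 passed the thresholds of the study's methods (13.6% of all did), which is near the background. The median amplitude was 0.07 for the 13 genes with Polr2 symbols, against 0.13 for the Pol I and Pol III list, a difference that was not tested. Both lists follow gene symbols, and subunits common to these enzymes carry Polr2 symbols. The comparison therefore does not separate the enzymes. The summed level of the Pol I and Pol III subunits was lowest at ZT02 (4524 units) and highest at ZT14 (5513 units), a ratio of 1.22, and thus had its extremes on the arrays that were most often the lowest and the highest among the genes of the Pol II machinery.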

How the data were processed

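The deposited values are log2 signals per probe set of 7 arrays. The submitters' processing notes name RMA and Affymetrix Expression Console (version 1.1.2637.26569), so that the authors had corrected background, normalized between arrays and summarised probes before deposit. Scanner files were not used here. Probe sets were named through GEO's platform annotation, in which 21789 of 35556 had 1 symbol, 1621 several and 12146 none, and symbols were updated through RefSeq gene records.

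Each probe set's log2 values were fitted with a 24 h cosine in limma (version 3.58.1, lmFit with eBayes, under R 4.3.3), with ZT02 and ZT26 at the same clock time. This leaves 4 residual degrees of freedom. Its moderated F-test took both cosine and sine coefficients, and Benjamini-Hochberg adjustment ran over the 12076 probe sets with 1 symbol and a mean above 85 units, the minimum in the study's methods. The p-values rest on the scatter about the cosine over 7 pools and not on replicates at a time point. The number of arrays limits the precision. The fitting code was tested on simulated data. Alternatives comprised leaving out each array, other minimums, scalings and probe set choices, a straight line and the test for one period.

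The genes, the partner and marker lists, the motifs and the tests were chosen with earlier results of these data known. Named genes were those called, up to 15 others with an unadjusted p under 0.05, the widest and narrowest of each role, and Polr2a, Tbp, Nelfe, Supt5, Cdk7, Cdk9, Ccnt1 and Hexim1. Gtf2e2, Gtf2f1, Polr2i, Med12, Supt6 and the genes named for ties or for the difference between ZT26 and ZT02 were chosen after their values were seen. Promoter windows came from RefSeq (GRCm38.p6), and genes without a window in that table were not analysed for motifs.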

Additional observations from a re-analysis of the deposited data

How the results depend on the processing

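With 1 array left out, 0 to 3 genes of the machinery were called (0 without ZT02, ZT14, ZT18 or ZT26, 1 without ZT10, 2 without ZT06 and 3 without ZT22), 13 to 312 of all tested probe sets, 0 to 1 partner genes (1 without ZT18) and no Pol I or Pol III gene, where fewer arrays leave fewer degrees of freedom. With no minimum level the counts were 0 for the machinery and 57 of 21789 for all probe sets, with a straight line added 0 and 98, and with the adjusted test for one period 0 and 0. The study's thresholds gave 7 for the machinery, 1645 for all tested, 4 partner genes and 3 Pol I and Pol III genes. Partner genes called numbered 2 with a mean above 170 units, 2 after quantile normalization and 1 on the natural scale, and 1 Pol I or Pol III gene was called after quantile normalization. The cause of these changes was not tested. A mean above 170 units, a trended variance, centred arrays, quantile normalization, the natural scale, other probe set choices and leaving out Taf1a to Taf1d gave 3 to 5 called genes of the machinery. Restricting it to the 77 genes whose probe set is numbered on their own chromosome, chosen after seeing the data, gave 4.

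For the 34 named genes there were 471 pairs of gene and setting, of which 437 kept the side of the threshold, 32 lost it and 2 passed it. All 32 losses fell on the 4 called genes, and most of the 437 pairs were uncalled genes that stayed uncalled. The pooled count is therefore no measure of how stable the calls were. The fitted peaks of the 4 called genes moved by at most 0.839 h with 1 array left out, whereas those of 7 genes that were not called (Med13, Med26, Polr2d, Taf1d, Gtf2h5, Cdk7 and Cdk9) moved by 6.20 to 12 h, so that their peak times have no fixed direction. No paired analysis was possible because each time point has 1 array.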

Other observations

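Taf1d had 9 probe sets with 1 symbol, and they did not run alike. The set with the highest mean, which represents the gene, ranged 1.1-fold, whereas 4 others carried the same 7 values of 131, 139, 173, 195, 194, 156 and 157 units from ZT02 to ZT26, with an amplitude of 0.26, a fitted peak at ZT15.5 and a limma adjusted p of 0.0598. These 4 sets are numbered among probe sets of chromosomes 9, 11 and 13.

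Among genes other than Taf1d with a second probe set numbered on the gene's own chromosome, the correlation of the pair over the 7 arrays, given as a description, was 0.971 for Polr2l, 0.794 for Polr2c, 0.749 for Taf10, 0.703 for Polr2h, 0.207 for Cdk7 and -0.19 for Taf13. A set shared by Taf9 and its overlapping neighbour Ak6 had 193 units at ZT02 and 283 units at ZT14, its lowest and highest arrays. The sets shared by Supt4a and Supt4b, which encode the small subunit of DSIF, had their lowest array at ZT18, with 346 and 637 units, and their highest at ZT10, with 494 and 751 units.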
